A study of Mus musculus with 45 samples.

Results

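The glutathione S-transferases described here are 10 genes of 28454 in the count table, taken from it by symbol: the mu-class genes Gstm1, Gstm2 and Gstm5, the pi-class gene Gstp1, the alpha-class gene Gsta4, the theta-class gene Gstt1, the omega-class gene Gsto1, and the microsomal genes Mgst1, Mgst2 and Mgst3. All 10 were found once each in the table and were followed across 45 libraries of messenger RNA from mouse mammary tumour cell lines in culture, 3 cultures for each of 15 combinations of line and medium. The MYAZ subtype comprised MYAZ16.1e, MYAZ12.3i and MYAZ6.6g, lines from mammary tumours of MMTV-cMYC mice, in which the MMTV promoter drives MYC in mammary epithelium; Myc310 was 1 line from a mouse of this kind with multiple tumours. The LM subtype comprised LM1, LM2 and LM3, grown out of lungs after Myc310 cells had been placed in the fat pad, and the LM-LM subtype comprised LM1-LM, grown out of lungs after LM1 cells had been injected, with LM2-LM and LM3-LM described as its biological replicates. All 10 lines were sequenced in control medium, and MYAZ16.1e, Myc310, LM1 and LM1-LM also after 6 h in medium free of cysteine and cystine. The labels give a change of medium for every library, whereas the study's methods can be read as limiting it to these 4 lines, so whether the control cultures of the other lines had fresh medium is unclear, and the subtype comparisons below may mix both. A further line, labelled MYAZ12_3i_NDI1 and called MYAZ12.3i-NDI1 below, was sequenced in control medium only.

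Glutathione S-transferases join the thiol of glutathione to electrophiles, which include drugs, lipid peroxidation products and metabolites. Glutathione is built from glutamate, cysteine and glycine, and cysteine supplies the thiol, so that these enzymes use a product of the amino acid that the deprived medium lacked. The cytosolic enzymes are dimers grouped into classes by sequence, whereas the microsomal enzymes belong to the separate MAPEG family of membrane proteins, some of which also make leukotrienes. In tumours the family is best known for the conjugation of alkylating drugs.

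The positions below are those of the GENCODE annotation on GRCm38, the build named in the submitters' processing notes. The mu-class genes lie in 1 cluster on chromosome 3, with Gstm5 at chr3:107895821-107898686 on the forward strand, Gstm2 at chr3:107981702-107986453 and Gstm1 at chr3:108012255-108017973 on the reverse strand; Mgst2 is also on that chromosome, at chr3:51660360-51682677 on the forward strand. Gstp1 is at chr19:4035407-4037985 on the reverse strand and Gsto1 at chr19:47854970-47864790 on the forward strand. Gsta4 is at chr9:78182774-78209349 and Mgst1 at chr6:138140316-138156755, both on the forward strand, and Gstt1 is at chr10:75783813-75798584 and Mgst3 at chr1:167371966-167393841, both on the reverse strand. Counts were taken over exons. Gstp1 shared 25.1% of its 100-base transcript windows with its near copies Gstp2 and Gstp-ps, so its counts depend on how reads were split between them. The group means of Gstp2 were 0.782 to 1.43 CPM, but these come from the same split and cannot show whether it was right. Gstm1 shared 5.86% of its windows with Gstm2-ps1, Gm8834 and Gstm3, Gstm2 shared 0.357% with Gm12499, and the other members shared none. Gstm5 and Gsto1 overlap a gene on the other strand (4933431E20Rik and Cfap43), and Mgst2 overlaps Gm37261 on its own strand.

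RefSeq promoters on GRCm38.p6 were matched for 9 of the 10 genes, with 11 windows in all, since Gstm1 and Mgst1 have 2 start sites each; Gsta4 had no entry. In each, the 250 bases upstream of the start were searched on both strands for the core of the antioxidant response element (TGACNNNGC), through which NRF2 acts on many genes of this family, for TGATGNAA, a form of the element read by ATF4 in amino acid deprivation, and for the E-box CACGTG read by MYC. The 3 motifs are found in 10.2%, 3.45% and 6.02% of 32851 promoter windows of the same length. The antioxidant response core was found in Gstm5, 42 bases upstream of the start, and on the opposite strand of the first Mgst1 start, 56 bases upstream, and neither of the other motifs was found in any of the 11 windows. The windows of Gstm5 and Gstt1 are shown because these genes were far lower in the Myc310 lineage, and those of Gstm1, Gstp1 and Mgst1 because these are 3 of the 4 genes that fell in all 4 deprived lines. The window of Mgst3, which fell in all 4 by at most 0.35 on the log2 scale, holds no match and is not shown. Each is written from 5′ to 3′ on the strand of its gene, and capitals mark the match to the antioxidant response core.
Gstm5, chr3:107895604-107895853, forward strand: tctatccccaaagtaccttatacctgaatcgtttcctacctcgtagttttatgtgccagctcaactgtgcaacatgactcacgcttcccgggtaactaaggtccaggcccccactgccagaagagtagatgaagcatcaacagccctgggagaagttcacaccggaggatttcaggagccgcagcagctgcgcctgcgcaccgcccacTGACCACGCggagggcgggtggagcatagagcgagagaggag
Gstt1, chr10:75797732-75797981, reverse strand: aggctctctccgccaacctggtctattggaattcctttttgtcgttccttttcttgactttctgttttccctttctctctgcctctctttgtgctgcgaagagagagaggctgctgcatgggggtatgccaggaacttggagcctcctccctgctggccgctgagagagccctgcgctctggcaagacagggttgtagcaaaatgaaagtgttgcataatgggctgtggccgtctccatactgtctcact
Gstm1, chr3:108017974-108018223, reverse strand: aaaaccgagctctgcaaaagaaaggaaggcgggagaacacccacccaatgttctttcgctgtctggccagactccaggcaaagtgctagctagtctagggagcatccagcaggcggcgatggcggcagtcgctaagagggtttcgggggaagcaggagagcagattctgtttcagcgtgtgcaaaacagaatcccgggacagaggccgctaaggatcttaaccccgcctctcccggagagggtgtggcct
Gstp1, chr19:4037913-4038162, reverse strand: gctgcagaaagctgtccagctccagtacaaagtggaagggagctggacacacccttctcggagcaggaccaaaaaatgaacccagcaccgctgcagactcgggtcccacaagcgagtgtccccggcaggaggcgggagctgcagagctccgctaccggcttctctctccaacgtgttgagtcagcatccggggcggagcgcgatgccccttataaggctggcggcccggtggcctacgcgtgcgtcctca
Mgst1, chr6:138140277-138140526, forward strand: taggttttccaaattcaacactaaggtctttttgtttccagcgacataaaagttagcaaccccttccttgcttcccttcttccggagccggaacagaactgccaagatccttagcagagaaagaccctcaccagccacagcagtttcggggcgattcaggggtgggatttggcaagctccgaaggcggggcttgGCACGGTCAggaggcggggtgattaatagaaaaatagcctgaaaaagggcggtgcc

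Libraries held 19517859 to 29019988 counts on genes, with a median of 22899900. No library was a copy of another of its group: the counts of all 45 pairs within groups differed by more than sampling noise, with a chi-square of 2.26 to 6.76 per degree of freedom. The keratins Krt8 (219 to 1704 CPM by group) and Krt18 (99.0 to 546 CPM) were present in every group, but Epcam and Cdh1, which define epithelium, did not exceed 0.673 and 0.268 CPM, and 4 of 10 epithelial markers reached 1 CPM in each group. Leukocyte Ptprc and alveolar Sftpc did not exceed 0.0909 and 0.0253 CPM. Levels are given as CPM, counts scaled to library size after TMM normalization over all 45 libraries. Each fit was normalized over its own libraries and genes, so fitted fold changes differ slightly from ratios of the printed CPM. In bulk libraries fewer expressing cells and less RNA per cell cannot be told apart.

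The members differed widely in abundance. Per length, Gstp1, Gstm1 and Gsto1 were the most abundant in all 15 groups, at 62.0 to 154, 43.9 to 139 and 51.2 to 82.7 CPM per kb of exon. Mgst3 ranged from 8.65 to 37.9 CPM per kb, Gstm2 from 7.51 to 20.1 and Mgst2 from 3.89 to 6.67, whereas Mgst1 (0.567 to 19.9), Gstm5 (0.360 to 17.7), Gsta4 (0.328 to 8.19) and Gstt1 (up to 4.05) differed most between groups. The sum over the 10 genes ranged in control medium from 287 ± 11.9 CPM per kb (SD, n = 3) in LM1-LM to 415 ± 9.48 in MYAZ12.3i. MYAZ16.1e, with 290 ± 5.15, was close to LM1-LM, and Myc310, with 364 ± 10.4, lay between the MYAZ lines.

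**Figure D1:**
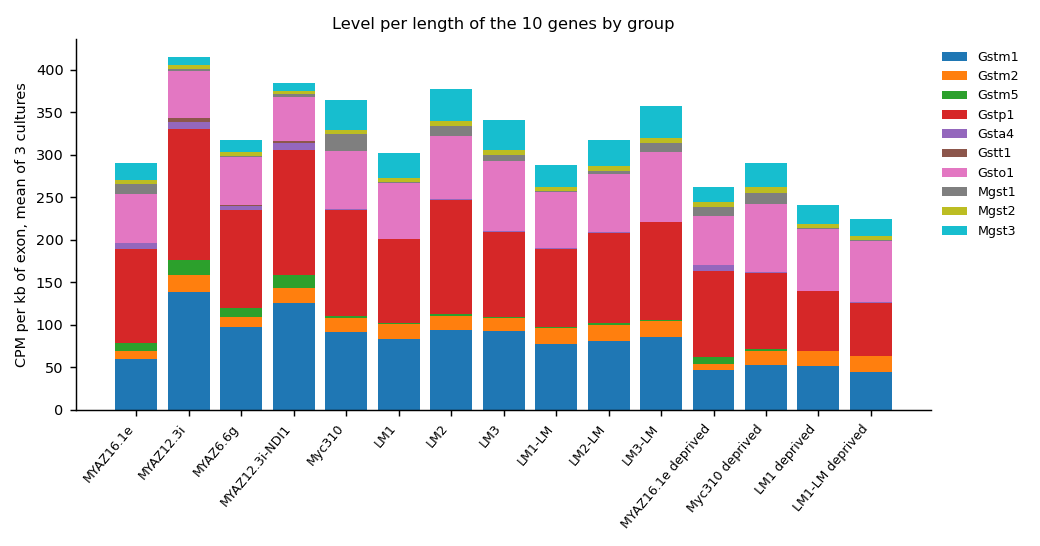
Stacked bars give the mean level per length (CPM per kb of exon, 3 cultures) of each of the 10 genes in the 15 groups, control groups on the left and deprived groups on the right. Gstp1, Gstm1 and Gsto1 make up most of every bar, and the 4 deprived bars, from 224 to 290 CPM per kb in sum, are each shorter than the control bar of their line.

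Gene by gene, the order of the lines was not shared. Among the 10 lines in control medium, the ratio of the highest to the lowest line mean was 36.4 for Gstm5, 16.8 for Mgst1, 12.1 for Gsta4, 3.94 for Mgst3, 2.32 for Gstm1, 2.27 for Gstm2, 1.66 for Gstp1, 1.59 for Mgst2 and 1.48 for Gsto1. MYAZ12.3i was the highest line for Gstm1, Gstm2, Gstm5, Gstp1, Gsta4 and Gstt1 and the lowest for Gsto1, Mgst2 and Mgst3. When the 15 groups were ordered by level, the ranges of neighbouring groups overlapped in 6 of 14 steps for Mgst1, in 8 for Gstm1 and Mgst3, in 9 for Gstp1 and Gsto1, in 10 for Gstm5, Gsta4 and Gstt1, in 11 for Gstm2 and in 12 for Mgst2. Steps that overlapped do not set 1 group above the next.

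**Figure D2:**
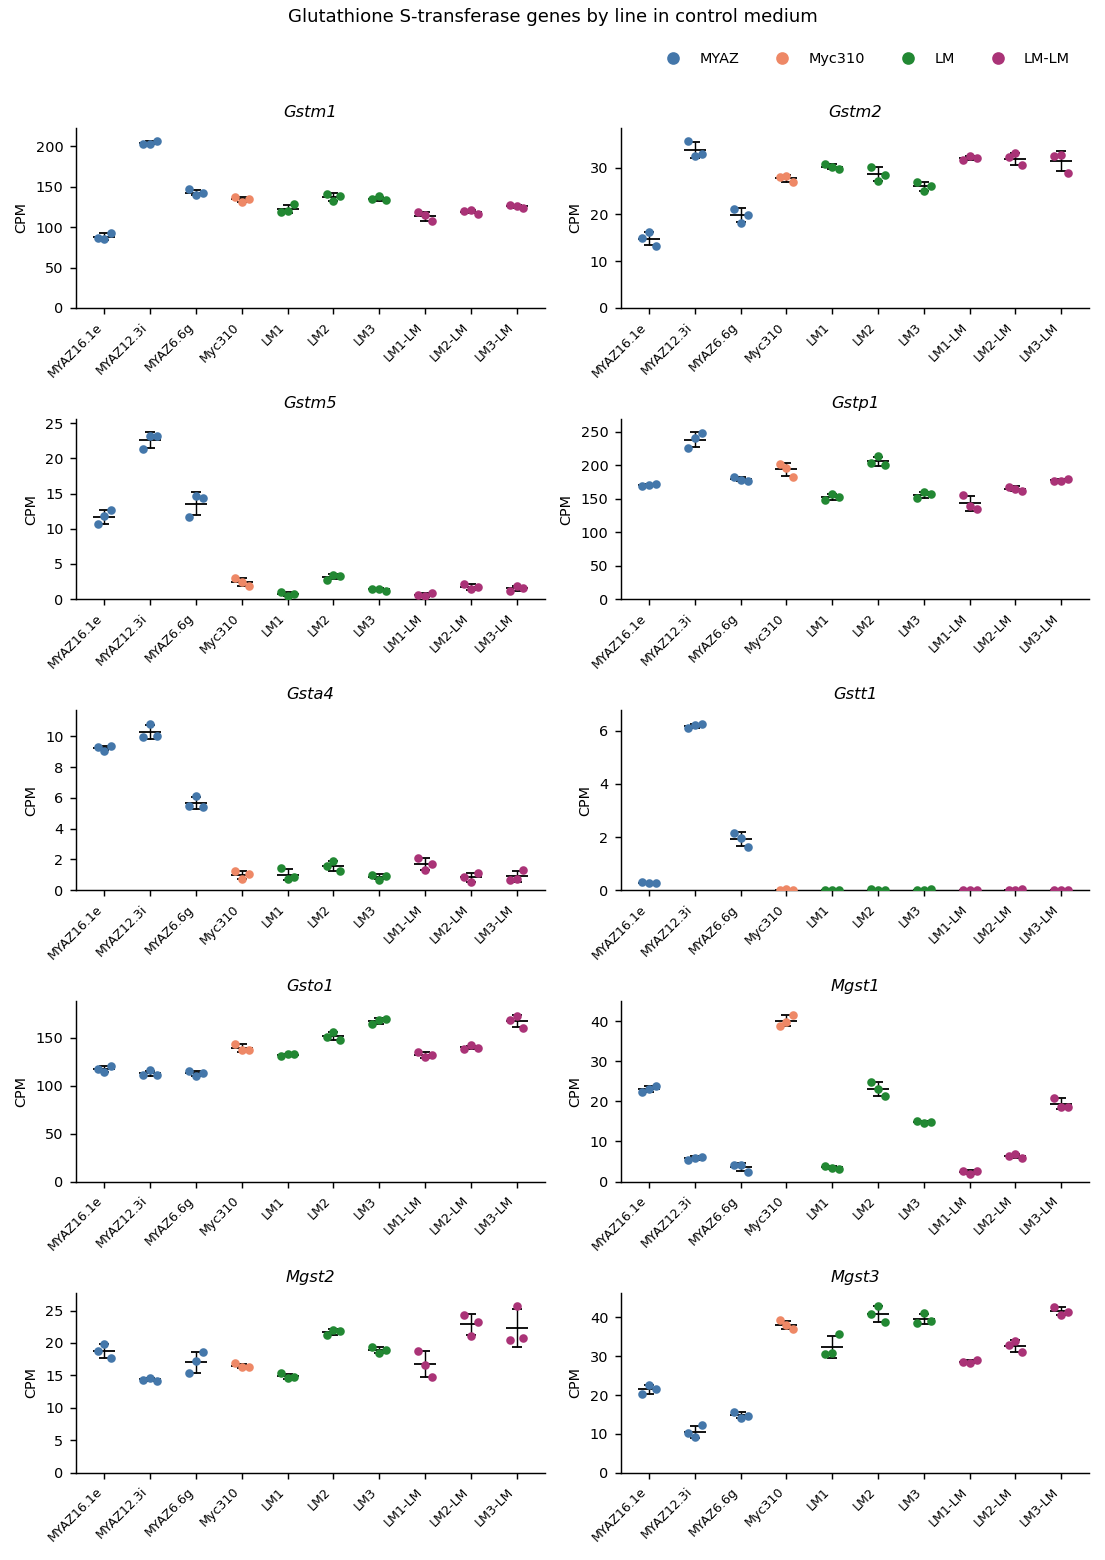
Each panel plots the CPM of 1 gene (linear axis from 0) in the 10 lines in control medium, with 1 point per culture, coloured by subtype, and a bar with whiskers for mean ± SD of 3 cultures. Gstm5 and Gsta4 are high in the 3 MYAZ lines and low in the other 7, Gstt1 is high in MYAZ12.3i, lower in MYAZ6.6g and near 0 in MYAZ16.1e and the other 7 lines, Mgst3 shows the opposite order, and Mgst1 varies from 2.38 CPM in LM1-LM to 40.1 CPM in Myc310.

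The comparison of subtypes asked how the transferases differed between lines of low and high metastatic potential in control medium. Gstm5, Gsta4 and Gstt1 were lower in Myc310, LM and LM-LM than in MYAZ, by 6.57-fold or more, and Mgst3 was 2.18-fold to 2.43-fold higher. Gsto1 was higher by 1.21-fold to 1.32-fold. The abundant Gstm1 did not pass the test in any of the 3 comparisons, and Gstp1 passed it only for LM-LM. The test was the quasi-likelihood test of edgeR over 13795 genes, with p-values adjusted by Benjamini-Hochberg and a threshold of 0.05, and fold changes are given on the log2 scale with their SE.

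In Myc310 against MYAZ, 3 of the 10 members were higher, beside 23.8% of all genes tested, and 3 were lower, beside 27.1%. In LM against MYAZ, 2 were higher, beside 30.3% of genes, and 3 were lower, beside 30.5%. In LM-LM against MYAZ, 4 were higher, beside 30.5%, and 4 lower, beside 32.3%. The lower members of each comparison include Gstt1, which passed the filter on low counts only through the MYAZ libraries. The members' median log2 fold changes were -0.03, 0.00 and -0.25, and those of all genes were -0.02, 0.00 and -0.01. The fit treats the 3 cultures of a line as replicates, so p-values measure the spread between these cultures and lines together. With counts summed per line, which leaves 1 value a line, 2, 5 and 4 members were called in the 3 comparisons, beside 1429, 3788 and 4226 of all 16017 genes tested in that fit. With the line as a random block in voom 4, 5 and 6 were called, beside 2819, 4759 and 5054 of 13795 genes. All 3 comparisons share the MYAZ libraries. Myc310 is 1 line, and the LM lines were grown from it and LM1-LM from LM1. The lines of the lineage are thus not independent, even at 1 value a line. A difference from MYAZ cannot be told apart from a property of the Myc310 line.

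Gstm5, a mu-class enzyme, was measured at 10.7, 11.8 and 12.6 CPM in MYAZ16.1e, at 21.3, 23.2 and 23.2 CPM in MYAZ12.3i and at 11.7, 14.6 and 14.4 CPM in MYAZ6.6g. In Myc310 it stood at 2.96, 2.46 and 1.87 CPM, and the line means of the LM and LM-LM lines ran from 0.622 CPM in LM1-LM to 3.18 CPM in LM2. The 9 MYAZ cultures did not overlap with any control culture of the Myc310 lineage. On the log2 scale it was changed by -2.72 ± 0.515 (SE) in Myc310 (adjusted p = 6.69e-05), by -3.17 ± 0.334 in the LM lines (adjusted p = 2.17e-09) and by -3.63 ± 0.343 in the LM-LM lines (adjusted p = 2.14e-10). The call in Myc310 was lost with counts summed per line (adjusted p = 0.12).

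Gsta4, the alpha-class enzyme specialised for the lipid peroxidation product hydroxynonenal, was also higher in each MYAZ line than in the lineage. Its CPM was 9.27, 9.06 and 9.38 in MYAZ16.1e, 9.98, 10.8 and 10.0 in MYAZ12.3i and 5.44, 6.13 and 5.42 in MYAZ6.6g. It was 1.26, 0.748 and 1.03 in Myc310, and the LM and LM-LM line means lay between 0.851 CPM in LM2-LM and 1.68 CPM in LM1-LM, again without overlap with MYAZ. These levels in the Myc310 lineage rest on 13 to 48 counts per library. Against MYAZ the log2 fold changes were -3.05 ± 0.384 for Myc310 (adjusted p = 1.36e-07), -2.85 ± 0.239 for LM (adjusted p = 1.86e-11) and -2.89 ± 0.239 for LM-LM (adjusted p = 1.3e-11). These calls held with counts summed per line, with adjusted p-values of 0.0236, 0.00178 and 0.00162; Myc310 is then 1 value, assumed to vary like the lines of the other subtypes.

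Gstt1, a theta-class enzyme that acts on small halogenated molecules, was close to absent from the Myc310 lineage. MYAZ12.3i libraries held 148, 136 and 157 counts (mean 6.19 CPM), MYAZ6.6g libraries 49, 47 and 40 (1.92 CPM) and MYAZ16.1e libraries 6, 6 and 8 (0.285 CPM). The 21 control libraries of Myc310, LM and LM-LM held 0 or 1 count each. The gene therefore passed the filter on low counts only through the MYAZ libraries, so a call could only be in the lower direction. Summed, 597 counts in the 9 MYAZ libraries faced 1 count in Myc310, 2 in the LM libraries and 1 in the LM-LM libraries, which gives level ratios of 195 (95% exact interval 34.8 to 7703), 287 (79.1 to 2374) and 593 (106 to 23445), intervals that cover counting error only. The adjusted p was 2.87e-05 for Myc310, 2.57e-09 for LM and 1.37e-09 for LM-LM, and the first was lost with counts summed per line (0.0729) and in voom (0.144). Within the MYAZ subtype the libraries of the 3 lines did not overlap, and the level in MYAZ16.1e rests on few counts.

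Sums of basal and endothelial markers were also higher in the MYAZ lines than in the lineage. The summed level of 6 basal markers was 248 to 326 CPM in MYAZ12.3i and MYAZ6.6g, 7.07 to 8.55 CPM in MYAZ16.1e and 0.0456 to 2.11 CPM in the lineage, nearly all of it Acta2; Krt5 stayed at or below 0.0968 CPM. The summed level of the 6 endothelial markers in the table was 3.57 to 7.08 CPM in the MYAZ lines and 0.141 to 0.967 CPM in the lineage, mostly Kdr, with Pecam1 at or below 0.167 CPM. Within MYAZ the basal sum was lowest in MYAZ16.1e, where Gsta4 (9.24 CPM) was higher than in MYAZ6.6g (5.66 CPM). Fibroblast sums were 7.46 to 98.4 CPM in the MYAZ lines and 1.73 to 217 CPM in the lineage. In the same order, epithelial sums were 339 to 1175 and 1016 to 2464 CPM. Leukocyte sums were 17.7 to 39.0 and 30.4 to 53.4 CPM, and lung epithelial sums 1.15 to 2.97 and 0.164 to 1.41 CPM. All of these ranges overlapped. The part of these markers in the result was not tested.

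Mgst3, a microsomal enzyme with peroxidase activity, ran in the opposite direction. MYAZ16.1e had 20.1, 22.6 and 21.5 CPM, MYAZ12.3i 10.2, 9.22 and 12.2 CPM and MYAZ6.6g 15.5, 14.1 and 14.7 CPM, against 39.2, 37.9 and 37.0 CPM in Myc310. The LM means were 32.3, 40.8 and 39.6 CPM and the LM-LM means 28.6, 32.7 and 41.6 CPM, and no culture of the lineage was as low as a MYAZ culture. The log2 fold changes were 1.28 ± 0.183 (adjusted p = 1.06e-06), 1.27 ± 0.140 (adjusted p = 4.74e-09) and 1.12 ± 0.139 (adjusted p = 4.62e-08), and the gene passed the test in every alternative run, with adjusted p-values up to 0.0476.

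Gsto1, an omega-class enzyme with thiol transferase and dehydroascorbate reductase activity, was uniform in MYAZ, at line means of 117, 113 and 113 CPM. It was 139 CPM in Myc310, 132, 151 and 167 CPM in LM1, LM2 and LM3 and 132, 139.7 and 167 CPM in LM1-LM, LM2-LM and LM3-LM. The log2 fold changes were 0.28 ± 0.0863 (adjusted p = 0.00765), 0.40 ± 0.062 (adjusted p = 2.45e-06) and 0.34 ± 0.062 (adjusted p = 2.37e-05). That in Myc310 was lost without replicate 1, with counts summed per line and in voom, and that in LM-LM with counts summed per line (adjusted p = 0.058).

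Mgst1, an abundant enzyme of the endoplasmic reticulum and outer mitochondrial membrane, followed single lines rather than subtypes. Myc310 had the highest level, 38.8, 39.9 and 41.6 CPM. The lines grown from it ranged from 3.87, 3.43 and 3.19 CPM in LM1 over 15.2, 14.6 and 14.9 CPM in LM3 to 24.9, 23.0 and 21.4 CPM in LM2. LM1-LM, grown from LM1, stayed low, at 2.71, 1.87 and 2.56 CPM, whereas LM2-LM had a mean of 6.34 CPM and LM3-LM of 19.4 CPM. MYAZ16.1e, with 23.1 CPM, had the same mean as LM2, and MYAZ12.3i and MYAZ6.6g had 5.81 and 3.53 CPM. The log2 fold change of 1.89 ± 0.668 in Myc310 against MYAZ (adjusted p = 0.0194) was lost without any 1 of the 3 replicate numbers, without MYAZ12.3i or MYAZ6.6g and with counts summed per line (adjusted p up to 0.371). Over all alternatives the change in Myc310 ran from 1.47 to 3.09. The log2 fold changes of LM (0.37 ± 0.518) and LM-LM (-0.21 ± 0.521) did not pass the test and took either sign as lines were left out. They passed in LM without MYAZ16.1e (1.57, adjusted p = 0.013) and in LM-LM without LM3-LM (-1.33, adjusted p = 0.0378).

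Gstm2, of the mu class, was 14.8, 33.7 and 19.8 CPM in MYAZ16.1e, MYAZ12.3i and MYAZ6.6g and lay between 26.0 and 32.0 CPM in the 7 other lines. It was higher in LM-LM (0.46 ± 0.138, adjusted p = 0.00463), a call lost without MYAZ16.1e (adjusted p = 0.066) and with counts summed per line (adjusted p = 0.192), and it did not pass in Myc310 (0.28 ± 0.192) or LM (0.31 ± 0.138, adjusted p = 0.0527). Without MYAZ12.3i it passed in all 3, at 0.67 in Myc310 (adjusted p = 1.75e-06), 0.71 in LM (adjusted p = 6.5e-09) and 0.86 in LM-LM (adjusted p = 1.8e-10). Gstm1, a major conjugating enzyme of mouse liver, was 88.3, 204 and 143 CPM in the MYAZ lines and 114 to 137 CPM in the others, so that the spread within MYAZ spanned the lineage. Its log2 fold changes were -0.12 ± 0.191, -0.14 ± 0.134 and -0.30 ± 0.134, with an adjusted p of 0.0541 in LM-LM. The outcome turned on the MYAZ lines included: without MYAZ12.3i all 3 took a positive sign (0.21, 0.19 and 0.03) and did not pass, whereas without MYAZ16.1e all 3 passed, at -0.38 (adjusted p = 0.00403), -0.40 (adjusted p = 7.12e-05) and -0.56 (adjusted p = 5.58e-07). The LM-LM call was also made in DESeq2 (adjusted p = 0.049), under upper-quartile (0.0446) and total-count scaling (0.0377) and with at least 10 counts in every library (0.0397).

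Gstp1, the pi-class enzyme most often studied in tumours, was 171, 238 and 179 CPM in the MYAZ lines, 194 CPM in Myc310, 153, 206 and 156 CPM in LM1, LM2 and LM3 and 143, 165 and 178 CPM in LM1-LM, LM2-LM and LM3-LM. It was lower in LM-LM (-0.29 ± 0.0911, adjusted p = 0.00605), but not without MYAZ12.3i or LM1-LM, with counts summed per line or in voom (adjusted p up to 0.273). Mgst2, a microsomal enzyme that can make a cysteinyl leukotriene, was 14.4 to 18.8 CPM in the MYAZ lines and 14.8 to 22.9 CPM in the others. It was higher in LM-LM (0.29 ± 0.104, adjusted p = 0.0179), a call that 7 alternatives lost, among them those without replicate 1 or 2, without MYAZ12.3i, LM2-LM or LM3-LM, and with counts summed per line (adjusted p up to 0.258). In LM, 5 members were called in the fit over all lines and 8 without MYAZ16.1e, where Gstm1, Gstp1 and Mgst1 also passed and 8850 of 13719 genes were called.

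**Figure D3:**
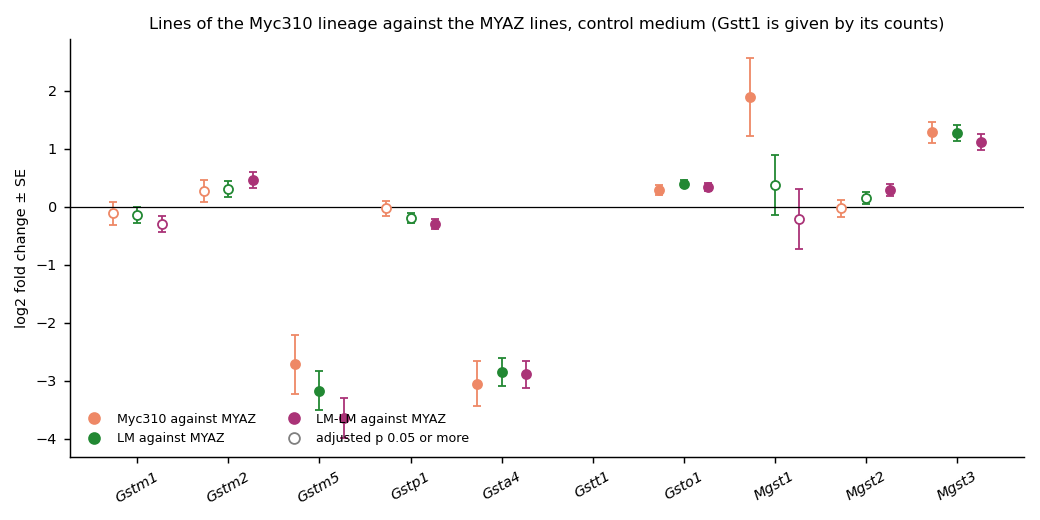
Points give the log2 fold change of each gene against MYAZ in control medium, with SE bars, for Myc310, LM and LM-LM. Filled points passed an adjusted p of 0.05, open points did not, and Gstt1 is left out because its counts in the lineage were 0 or 1. Gstm5 and Gsta4 lie between -3.63 and -2.72 in all 3 comparisons, and Mgst3 lies between 1.12 and 1.28.

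Within the lineage no member passed the test in edgeR. In LM against Myc310, 0 of 10 members were called, beside 3.43% of genes higher and 1.51% lower, and 1 had an unadjusted p under 0.05. That gene was Mgst1 (-1.52 ± 0.673, unadjusted p = 0.0317, adjusted p = 0.22), which was lower in each LM line than in Myc310 but by unequal amounts. In LM-LM against LM, 0 of 10 were called, beside 0.268% higher and 0.5% lower, and 0 had an unadjusted p under 0.05; without LM3-LM, 2 members were called, beside 2063 of 13750 genes. DESeq2, voom and counts summed per line also called 0 members in both comparisons; of all genes they called 988 of 14308, 37 of 13795 and 2 of 16017 in the first and 234 of 16308, 0 and 0 in the second, so these counts of 0 say little about the members.

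The deprivation experiment asked how the lines responded to 6 h without cysteine and cystine. Gstm1, Gstp1, Mgst1 and Mgst3 fell in all 4 lines, and Mgst2 rose in MYAZ16.1e, Myc310 and LM1. Gstm1 fell to between 0.565 and 0.766 of its control level. By the fitted fold changes Gsto1 rose by 1.14-fold to 1.16-fold in Myc310, LM1 and LM1-LM, so that the direction differed between members of the family. The sum over the 10 genes went from 286 to 296 CPM per kb in the control cultures of MYAZ16.1e to 260 to 264 in the deprived ones, from 354 to 375 to 286 to 293 in Myc310, from 296 to 308 to 239 to 244 in LM1 and from 278 to 301 to 223 to 227 in LM1-LM, without overlap in any line.

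Of the 9 members tested (Gstt1 did not pass the filter on low counts), 1 rose and 5 fell in MYAZ16.1e, where 26.6% of all genes rose and 27.1% fell. In Myc310, 2 rose and 5 fell, beside 32.8% and 33.9% of genes. In LM1, 2 rose and 5 fell, beside 35.8% and 35.3%, and in LM1-LM 1 rose and 5 fell, beside 36.5% and 35.9%. The members' median log2 fold change was -0.16, -0.37, -0.47 and -0.36 in the 4 lines, and that of all 13400 genes tested was between -0.01 and 0.00. In MYAZ16.1e only 3 members were called without replicate 3, beside 6128 of 13443 genes. Scaling by total counts alone moved the median of all genes to -0.12 in LM1 and -0.13 in LM1-LM, and values near 0 in these lines move with it.

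Gstm1 fell from 87.1, 84.7 and 92.9 CPM to 65.6, 66.7 and 71.6 CPM in MYAZ16.1e and from 138, 131 and 135 CPM to 74.2, 78.4 and 77.4 CPM in Myc310. In LM1 it fell from 119, 120.2 and 128 CPM to 75.5, 73.2 and 75.9 CPM, and in LM1-LM from 119, 115 and 108 CPM to 64.5, 63.7 and 65.7 CPM. Control and deprived cultures were apart in every line, and the spread between lines was narrower after deprivation. Its log2 fold change was -0.38 ± 0.0421 in MYAZ16.1e (adjusted p = 4.94e-09), -0.82 ± 0.0405 in Myc310 (2.13e-17), -0.68 ± 0.0412 in LM1 (2.78e-15) and -0.78 ± 0.0417 for LM1-LM (1.13e-16).

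Gstp1 fell from 169.7, 171 and 172 CPM to 162, 160.3 and 148 CPM in MYAZ16.1e, from 202, 196 and 183 CPM to 137, 141 and 139.7 CPM in Myc310, from 148, 158 and 152 CPM to 106, 113 and 103 CPM in LM1 and from 156, 139 and 135 CPM to 96.3, 100.5 and 91.3 CPM in LM1-LM. The groups did not overlap in any line. The change was -0.13 ± 0.0433 in MYAZ16.1e (adjusted p = 0.00968, lost without replicate 3), -0.49 ± 0.0434 in Myc310 (2.37e-11), -0.47 ± 0.0454 in LM1 (1.15e-10) and -0.54 ± 0.0457 for LM1-LM (6.33e-12).

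Mgst1 fell in each line although its control level differed widely between them. The CPM went from 22.3, 23.1 and 23.9 to 20.05, 19.8 and 20.1 in MYAZ16.1e, from 38.8, 39.9 and 41.6 to 25.5, 27.7 and 25.7 in Myc310, from 3.87, 3.43 and 3.19 to 2.23, 1.83 and 2.16 in LM1 and from 2.71, 1.87 and 2.56 to 1.18, 1.11 and 1.13 in LM1-LM. The change was -0.22 ± 0.0675 in MYAZ16.1e (adjusted p = 0.00745, lost without replicate 3), -0.62 ± 0.0634 in Myc310 (5.15e-10), -0.71 ± 0.133 in LM1 (1.9e-05) and -1.01 ± 0.160 for LM1-LM (1.57e-06). Mgst3 fell less, by means of 21.4 to 19.2 CPM in MYAZ16.1e, 38.0 to 31.1 CPM in Myc310, 32.3 to 24.7 CPM in LM1 and 28.6 to 22.5 CPM in LM1-LM. Its changes were -0.16 ± 0.0658 (adjusted p = 0.0362), -0.30 ± 0.0582 (adjusted p = 3.73e-05), -0.35 ± 0.0616 (adjusted p = 7.14e-06) and -0.31 ± 0.0624 (adjusted p = 5.3e-05), and the call in MYAZ16.1e was lost without replicate 2 or 3, under scaling by total counts and with only the libraries of that line (adjusted p up to 0.282).

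Mgst2 went the other way from the other microsomal genes. It rose from 18.8, 19.8 and 17.7 CPM to 24.9, 25.2 and 23.9 CPM in MYAZ16.1e (0.39 ± 0.0669, adjusted p = 1.1e-05), from 16.9, 16.3 and 16.3 CPM to 22.9, 23.8 and 24.3 CPM in Myc310 (0.51 ± 0.0683, adjusted p = 1.12e-07) and from 15.3, 14.5 and 14.7 CPM to 19.9, 19.2 and 18.0 CPM in LM1 (0.39 ± 0.072, adjusted p = 1.48e-05). In LM1-LM it was 18.8, 16.7 and 14.8 CPM in control and 17.8, 18.2 and 16.6 CPM in deprived cultures, which overlap (0.10 ± 0.0705, adjusted p = 0.203). Gsto1 rose from 144, 137 and 137 CPM to 164, 162 and 164 CPM in Myc310 (0.22 ± 0.031, adjusted p = 2.87e-07), from 131, 133 and 133 CPM to 143, 146 and 155 CPM in LM1 (0.20 ± 0.0316, adjusted p = 1.91e-06) and from 135, 129 and 132 CPM to 145, 148 and 144 CPM for LM1-LM (0.18 ± 0.0314, adjusted p = 5.18e-06), where scaling by total counts ended the call (0.05, adjusted p = 0.132). In MYAZ16.1e it stood at 117, 114 and 121 CPM before and 119.6, 113 and 119 CPM after (-0.01 ± 0.0321).

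**Figure D4:**
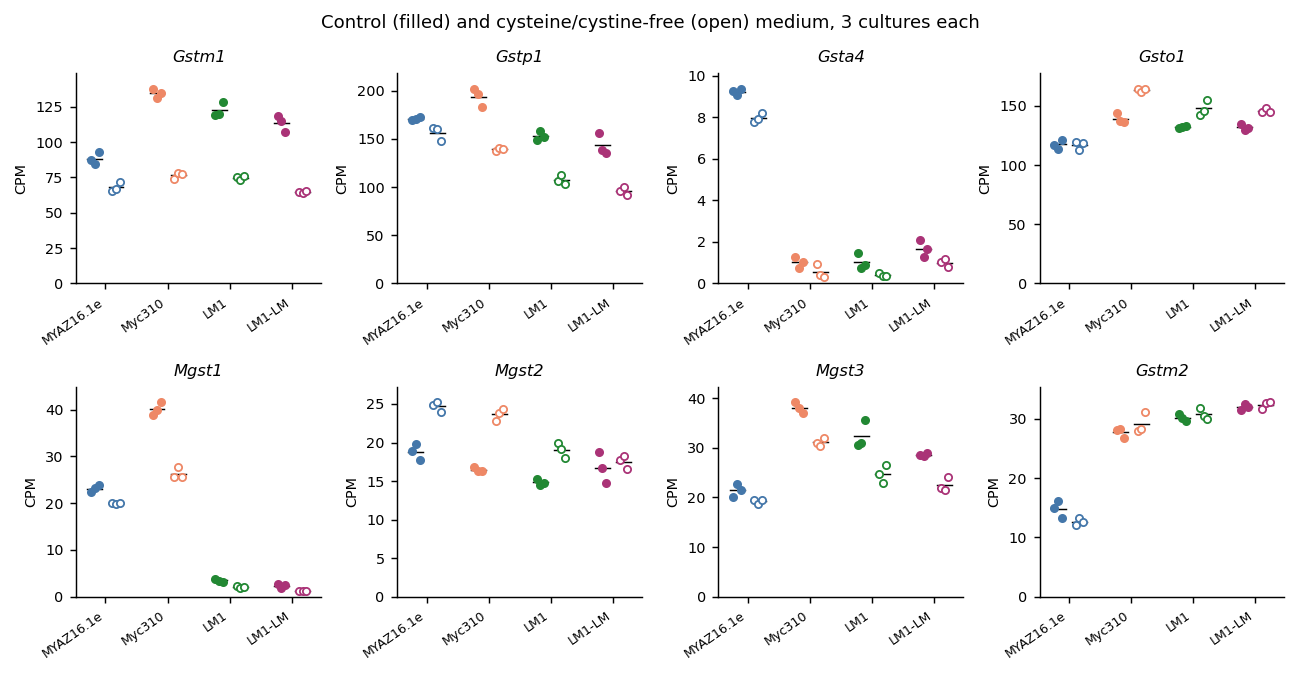
Each panel plots the CPM of 1 gene (linear axis from 0) in control cultures (filled) and after 6 h without cysteine and cystine (open) in the 4 lines that were deprived, with a line at the mean of 3 cultures. Gstm1 and Gstp1 are lower in every deprived group, Mgst2 is higher in the first 3 lines, and Gstm2 passed the test in MYAZ16.1e only.

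The remaining members gave fewer calls. Gsta4 fell in Myc310 (-0.87 ± 0.325, adjusted p = 0.019), LM1 (-1.23 ± 0.354, 0.00267) and LM1-LM (-0.71 ± 0.269, 0.0197), but on low counts: 32, 17 and 22 against 21, 9 and 7 in Myc310, 28, 16 and 19 against 11, 8 and 8 in LM1 and 48, 31 and 36 against 27, 23 and 17 in LM1-LM. The calls were lost without replicate 2 or 3 in Myc310, also with only the libraries of that line, and without replicate 1 or 3 in LM1-LM. In MYAZ16.1e, where Gsta4 was measured with 167 to 276 counts, the change was -0.22 ± 0.177. Gstm2 fell in MYAZ16.1e, from 15.03, 16.2 and 13.3 CPM to 12.05, 13.2 and 12.6 CPM (-0.23 ± 0.0677, adjusted p = 0.00509, lost without replicate 1 or 2), and was 0.06 ± 0.0558, 0.06 ± 0.0556 and 0.05 ± 0.0543 in Myc310, LM1 and LM1-LM, where the sign in LM1 and LM1-LM turned under upper-quartile and total-count scaling. Gstm5 did not pass the test in any line, with changes from -0.57 ± 0.352 in LM1 to -0.12 ± 0.149 in MYAZ16.1e. Gstt1 had 6, 6 and 8 counts in control and 6, 18 and 17 counts in deprived cultures of MYAZ16.1e, and 0 counts in the 9 deprived cultures of the other lines.

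**Figure D5:**
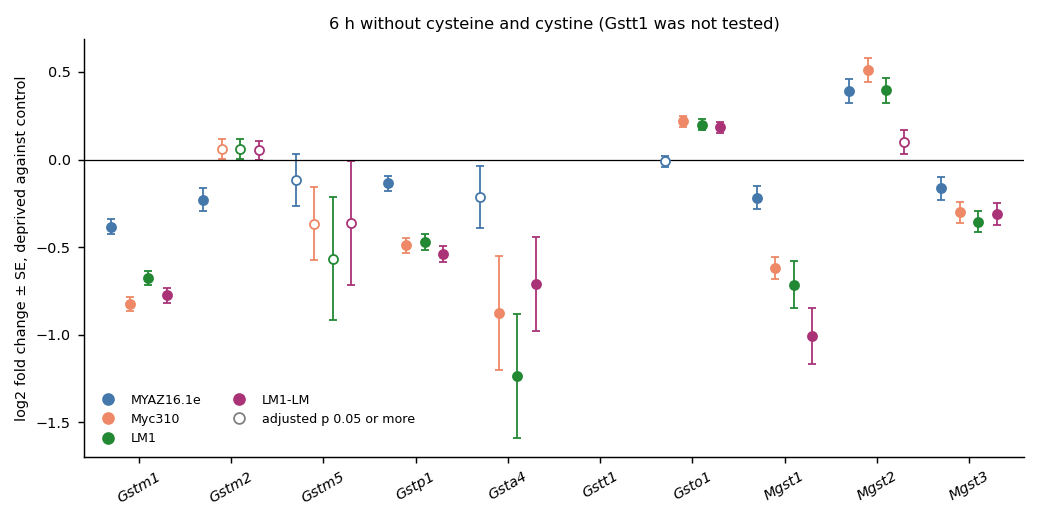
Points give the log2 fold change of deprived against control cultures with SE bars for 9 genes in the 4 lines; filled points passed an adjusted p of 0.05 and open points did not. Gstm1 lies at -0.38 in MYAZ16.1e and between -0.82 and -0.68 in the other 3 lines, and Gsto1 lies at -0.01 in MYAZ16.1e and between 0.18 and 0.22 in the others.

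Marker sums moved with deprivation. The summed level of the 7 leukocyte markers in the table was 30.4 to 43.2 CPM in control and 63.8 to 70.8 CPM in deprived cultures of Myc310, LM1 and LM1-LM, and 34.6 to 39.0 against 47.6 to 51.8 CPM in MYAZ16.1e. Cd14 and Cd68 carried nearly all of it, while the defining marker Ptprc stayed at or below 0.0909 CPM and Lyz2 at or below 0.014 CPM in every group. The summed level of the 10 epithelial markers went from 1147 to 1175 CPM in control to 1353 to 1399 CPM in deprived cultures of MYAZ16.1e, from 1383 to 1400 to 1604 to 1640 in Myc310, from 1105 to 1134 to 1383 to 1419 in LM1 and from 1016 to 1062 to 1317 to 1347 in LM1-LM. The sum of the 10 fibroblast markers was higher in deprived cultures of MYAZ16.1e (7.46 to 10.2 against 10.7 to 11.9 CPM) and Myc310 (1.73 to 2.16 against 2.68 to 2.81 CPM) and lower in LM1 (15.1 to 17.7 against 10.5 to 11.4 CPM) and LM1-LM (57.6 to 63.6 against 26.9 to 29.2 CPM), with Dcn at or below 0.0981 CPM and Lum at or below 0.0151 CPM in every group. None of these ranges overlapped between media within a line. The sum of the 6 lung epithelial markers in the table was low throughout and lower in deprived cultures of MYAZ16.1e (1.15 to 2.07 against 0.602 to 0.756 CPM), LM1 (0.542 to 0.985 against 0.184 to 0.465 CPM) and LM1-LM (0.387 to 0.606 against 0.0504 to 0.306 CPM), and overlapped in Myc310. The basal and endothelial sums overlapped in all 4 lines. The part of these markers in the changes of the members was not tested.

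The responses of the more metastatic lines were then tested against that of MYAZ16.1e as interaction contrasts, which all share the MYAZ16.1e libraries. Gstm1, Gstp1 and Mgst1 fell further in Myc310, LM1 and LM1-LM than in MYAZ16.1e, and the responses of Gsto1 and Gstm2 were more positive. In Myc310, 5 of 9 members differed in response, beside 40.3% of genes. In LM1, 6 of 9 differed, beside 52.2%, and in LM1-LM 6 of 9, beside 54.8%. The LM1 count was 3 without replicate 1 or without replicate 2, beside 6190 of 13432 and 5939 of 13471 genes.

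For Gstm1 the difference in response was -0.44 ± 0.0585 in Myc310 (adjusted p = 3.9e-07), -0.29 ± 0.0589 in LM1 (0.000109) and -0.39 ± 0.0593 for LM1-LM (1.46e-06). For Gstp1 it was -0.36 ± 0.0613 (adjusted p = 2.21e-05), -0.34 ± 0.0628 (adjusted p = 3.56e-05) and -0.41 ± 0.063 (adjusted p = 2.23e-06). Both held in every alternative run. For Mgst1 it was -0.40 ± 0.0926 (adjusted p = 0.00074), -0.50 ± 0.149 (adjusted p = 0.00672, lost without replicate 1 or 2) and -0.79 ± 0.174 (adjusted p = 0.000269).

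For Gsto1 the difference was 0.23 ± 0.0446 (adjusted p = 0.000109), 0.21 ± 0.0451 (adjusted p = 0.000243) and 0.19 ± 0.0449 (adjusted p = 0.000473), of which those of LM1 and LM1-LM were lost under scaling by total counts. For Gstm2 it was 0.29 ± 0.0877 (adjusted p = 0.0089), 0.29 ± 0.0876 (adjusted p = 0.00611) and 0.28 ± 0.0868 (adjusted p = 0.0066), and all 3 were lost without replicate 1 or 2, those of LM1 and LM1-LM also under total-count scaling and that of LM1-LM under upper-quartile scaling. Gsta4 differed in LM1 (-1.02 ± 0.397, adjusted p = 0.0322) and lost this call without any 1 of the 3 replicate numbers. Mgst2 differed in LM1-LM (-0.29 ± 0.0972, adjusted p = 0.0123), where its rise did not pass the test, and this call was lost without replicate 1.

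In MYAZ12.3i-NDI1 against MYAZ12.3i, 5 of 10 members were called, all lower, beside 17.4% of all genes in either direction. Gstt1 fell from 148, 136 and 157 counts to 96, 97 and 95 counts per library, 6.10, 6.24 and 6.24 CPM against 4.56, 3.69 and 3.60 CPM (-0.66 ± 0.134, adjusted p = 0.00359). Gstm1 fell from 203, 204 and 207 CPM to 187, 179 and 189 CPM (-0.15 ± 0.0289, adjusted p = 0.00241). These groups were apart for both genes. Gstm2 (-0.21 ± 0.0561, adjusted p = 0.0187), Gstm5 (-0.25 ± 0.075, adjusted p = 0.0295) and Gsto1 (-0.12 ± 0.0399, adjusted p = 0.042) were also called. The call of Gstm2 was lost in DESeq2 and without replicate 1 or 2, that of Gstm5 in DESeq2, without replicate 2 or 3 and with all 33 control libraries, and that of Gsto1 in DESeq2, under total-count scaling and without any 1 of the 3 replicate numbers. DESeq2 called 2 members, beside 1501 of 12471 genes. Without replicate 1, 2 or 3 the members called were 3, 2 and 3, beside 898 of 12937, 1037 of 12906 and 1326 of 12800 genes. Gstp1, Gsta4, Mgst1, Mgst2 and Mgst3 did not pass, with changes from -0.17 ± 0.104 for Mgst3 to 0.24 ± 0.12 for Mgst1. Marker sums differed between these lines too: the basal sum was 308 to 326 CPM in MYAZ12.3i and 209.9 to 218 CPM in MYAZ12.3i-NDI1, the endothelial sum 6.64 to 7.08 against 5.04 to 5.46 CPM, the epithelial sum 339 to 352 against 367 to 379.9 CPM and the fibroblast sum 94.1 to 98.4 against 104 to 107 CPM, none with overlap, whereas the leukocyte and lung epithelial sums overlapped. The part of these markers in the members' changes was not tested.

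Other genes of the superfamily gave a list of 21 genes, the remaining glutathione transferases and MAPEG proteins, of which 13 were tested between subtypes and 11 in deprivation. Against MYAZ, 4 were higher and 2 lower in Myc310, 5 and 2 in LM, and 5 and 4 in LM-LM, beside 23.8% and 27.1%, 30.3% and 30.5%, and 30.5% and 32.3% of all genes tested, with medians of -0.35, 0.15 and 0.16 on the log2 scale. Ptges, the MAPEG enzyme that makes prostaglandin E, had the highest mean CPM over all libraries among the list genes called in both LM and LM-LM, although it was at 8.63 CPM in MYAZ, and its log2 fold change was 3.76 in LM (adjusted p = 1.7e-17) and 3.96 in LM-LM (adjusted p = 5.8e-18). Gstz1, the zeta-class isomerase of tyrosine breakdown, was higher (0.43 and 0.35), as was Gstcd (0.15 and 0.16), and Gstm7 of the mu cluster was lower (-1.67 and -1.98), as Gstm5 was.

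In deprivation, 4, 3, 2 and 2 genes of this list rose and 0, 3, 2 and 3 fell in the 4 lines, in the order MYAZ16.1e, Myc310, LM1, LM1-LM, beside 26.6%, 32.8%, 35.8% and 36.5% of all genes that rose and 27.1%, 33.9%, 35.3% and 35.9% that fell, with medians of 0.34, 0.26, -0.38 and 0.11. Gstz1 rose by 0.43, 0.67, 0.59 and 0.71 and Gstcd by 0.21, 0.30, 0.29 and 0.32, all with adjusted p-values below 0.05, and no gene of the list fell in all 4 lines. In MYAZ12.3i-NDI1, 1 of 10 tested genes rose and 0 fell, beside 17.4% of all genes in either direction, with a median of -0.02.

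The second list held 21 genes that act after conjugation, in export, mercapturate formation or the glyoxalase system; 20 were in the table, 17 were tested between subtypes and 15 in deprivation. Against MYAZ, 5 were higher and 4 lower in Myc310, 6 and 5 in LM, and 6 and 5 in LM-LM, beside the same shares of all genes, with medians of 0.05, 0.02 and 0.05. Lap3, a cytosolic leucine aminopeptidase, was lower in LM and LM-LM (-0.49 and -0.43), as was the aminoacylase Acy1 (-0.27 and -0.21). The exporter Abcc5 (0.72 and 0.78) and the glyoxalase Hagh (0.49 and 0.40) were higher.

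In deprivation, 3, 4, 4 and 4 genes of this list rose and 5, 7, 9 and 10 fell in the 4 lines, beside the same shares of all genes, with medians of 0.08, -0.19, -0.23 and -0.18. The conjugate exporter Abcc1 (0.20, 0.11, 0.19 and 0.25) rose in all 4 lines, whereas Abcc5 (-0.16, -0.64, -0.51 and -0.65) and the glyoxalase Glo1 (-0.11, -0.08, -0.23 and -0.18) fell in all 4. In MYAZ12.3i-NDI1, 2 of 15 tested genes rose and 3 fell, beside the same 17.4%, with a median of 0.06. Within the lineage, 1 gene of each list was higher in LM than in Myc310, beside 3.43% of all genes higher and 1.51% lower, and no list gene was called in LM-LM against LM, beside 0.268% and 0.5%.

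Across the 15 group means of log2 CPM, the gene most like each member in pattern was sought among 8943 candidates. These were genes outside the members and the 2 lists with a mean log2 CPM of 3 or more. Pearson's r was 0.99 between Gstt1 and Phf21a, 0.98 between Gsta4 and Gm10033, 0.97 between Gstm5 and Dynlt1f, between Gstp1 and Sfpq, between Gsto1 and Capg and between Mgst3 and Zhx1, 0.96 between Gstm1 and Poglut3, 0.94 between Gstm2 and Lta4h, 0.92 between Mgst1 and Gmcl1 and 0.85 between Mgst2 and Ap1g2. Each r is the largest over these candidates. That of Gstt1 rests on the MYAZ lines and MYAZ12.3i-NDI1, as all other groups held 0 or 1 count a library. The 15 points share lines and subtypes. No member or list gene could therefore be chosen for another member.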

How the data were processed

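RNA of 45 libraries had been sequenced from poly(A)-selected, strand-specific libraries in read pairs of 100 bases. Read alignment was done by the authors with STAR and quantification with RSEM, and the deposited values are estimated counts per gene, given as whole numbers and not normalized; GRCm38 is the build in the submitters' processing notes. All columns were matched to a line, medium and replicate by the labels. GENCODE mouse M21 held 28407 of the 28454 identifiers, and 1438 genes had no count.

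Counts were tested in R 4.3.3 with edgeR 4.0.16 (TMM, filterByExpr, quasi-likelihood test, Benjamini-Hochberg adjustment over all genes, threshold 0.05). The subtype model held 30 control libraries with subtype as the only factor (13795 genes), that of deprivation 24 libraries in 8 groups of line and medium (13400 genes), and that of NDI1 6 libraries (12841 genes). Each SE is the log2 fold change divided by the square root of the F statistic. The design text calls the 3 cultures technical replicates, so p-values measure the spread between these cultures and, in the subtype model, between lines as well. Intervals of count ratios are exact, at 95%. The fits were run on simulated counts with known changes. These were drawn independently for each library, without lines within subtypes, so they cannot show how that structure affects the subtype p-values.

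The 10 members and the 2 lists were chosen with earlier results of these data known. Members are named throughout; of the lists, at most 4 genes each were named, those with the highest mean level among genes called in 1 direction in all 4 deprived lines, or in LM and LM-LM against MYAZ. The values of a gene of the second list that this rule names are not reported here, and the list counts include it. Alternatives were other normalizations (RLE, upper quartile, total counts), other filters (any gene with 1 count; 10 counts in every library), DESeq2 1.42.0, a replicate block, counts summed per line, limma 3.58.1 voom with line as the random block, fits on the compared groups only, Gstp1 summed with Gstp2 and Gstp3, all 33 control libraries for NDI1, and leaving out each line or replicate number. Promoters are from RefSeq. A planned comparison of protein sequences was not run, and proteins are not used here.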

Additional observations from a re-analysis of the deposited data

Results flagged for a closer look

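The results below are the members whose response to deprivation differed from that of MYAZ16.1e by an interaction contrast in edgeR's quasi-likelihood test (adjusted p under 0.05); values are differences between log2 fold changes, and negative ones mean a response that was lower than in MYAZ16.1e. In Myc310 the difference was -0.44 for Gstm1, 0.29 for Gstm2, -0.36 for Gstp1, 0.23 for Gsto1 and -0.40 for Mgst1. In LM1 it was -0.29 for Gstm1, 0.29 for Gstm2, -0.34 for Gstp1, -1.02 for Gsta4, 0.21 for Gsto1 and -0.50 for Mgst1. In LM1-LM it was -0.39 for Gstm1, 0.28 for Gstm2, -0.41 for Gstp1, 0.19 for Gsto1, -0.79 for Mgst1 and -0.29 for Mgst2. Of all genes tested, 40.3%, 52.2% and 54.8% differed in response in the 3 lines, which share the MYAZ16.1e libraries. MYAZ16.1e is also the only MYAZ line that was deprived, so a difference from it cannot be told apart from a property of that line.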

How the results depend on the processing

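The tally covers member results against MYAZ, of deprivation and of NDI1, the response differences that passed, and Mgst1 in LM against Myc310. Other results within the lineage and response differences that did not pass are not in it. Of 67 tallied results that passed the threshold, 946 of 1015 alternative values kept direction and call, 69 kept the direction only and 0 reversed. Of 27 tallied results that did not pass, 418 of 458 alternative values stayed so, 17 passed and 23 reversed. With counts summed per line the members called fell to 2 in Myc310 and to 4 in LM-LM against MYAZ, where the unit is 1 line. Leaving out a line or replicate number gave 4 to 8 called members in LM against MYAZ, 0 to 2 in LM-LM against LM, 3 to 5 in deprived MYAZ16.1e, 3 to 5 in the LM1 response and 2 to 3 in NDI1, where DESeq2 gave 2; the cause was not tested. The calls over all genes moved too, out of 12787 to 13863 tested. They ran from 7095 to 8850 in LM against MYAZ and from 0 to 2063 in LM-LM against LM. In deprived MYAZ16.1e they ran from 6128 to 6317, in the LM1 response from 5939 to 6190 and in NDI1 from 898 to 1326. On total counts the mean MYAZ level of Gsto1 was 117.1 CPM in place of 114.3.

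The reversals and ranges in this paragraph are those of the tallied results. Reversals against MYAZ in Myc310 were Gstp1 with counts summed per line (0.0017) and in voom (0.0031) and Mgst2 in voom (0.00688). Under total-count scaling Gsto1 in deprived MYAZ16.1e was 0.012, Gstm2 was -0.057 in LM1 and -0.078 in LM1-LM, and Mgst2 was -0.032 in LM1-LM; under upper-quartile scaling Gstm2 was -0.016 in LM1 and -0.029 in LM1-LM. Leave-one-out ranges that crossed 0 were, in Myc310 against MYAZ, -0.38 to 0.21 for Gstm1, -0.11 to 0.14 for Gstp1 and -0.12 to 0.060 for Mgst2; in LM, -0.40 to 0.19 for Gstm1 and -0.22 to 1.57 for Mgst1; in LM-LM, -0.56 to 0.031 for Gstm1 and -1.33 to 0.99 for Mgst1; in deprived Myc310, -0.013 to 0.096 for Gstm2; and in NDI1, -0.074 to 0.095 for Gsta4. Total-count scaling shifted the median response difference of all genes to -0.13 in LM1 and -0.15 in LM1-LM.

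Cultures with the same number did not deviate together (median correlation of deviations -0.001 between subtypes and -0.0067 in deprivation), so the numbers do not pair them. With the replicate block the member counts were the same in 13 of 13 comparisons (6, 5 and 8 against MYAZ). All 94 of 94 tallied member results kept their call.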
